A study of Mus musculus with 2 samples.

Results

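The Iroquois homeobox genes Irx1 to Irx6 were described in midbrain tissue of mouse embryos at 12.5 days. Members were the genes whose identifiers map to Irx1 to Irx6 in the GENCODE M21 annotation. All 6 were measured, out of 43346 genes, with 13 annotated transcripts between them. Total RNA was sequenced in 2 libraries that form 1 group, so there was no second condition. Replicate 2 came from a pool of 88 embryos and replicate 1 from a pool of 120, of strain B6NCrl, with both sexes mixed in each pool. Each library started from 10 ng of RNA above 200 nt in length, extracted with mirVana, with spike-in RNAs added, and the labels give both pools the same donor identifier. The files gave 37381984 estimated counts for replicate 2 against 29430493 for replicate 1, and spike-ins made up 3.48% of those in replicate 2 and 4.14% in replicate 1. Levels are deposited TPM, the length-corrected abundance of a gene's transcripts, and an SD is over the 2 libraries. The tables also give an interval for each TPM, by its lower and upper bound, and the file headers do not state its confidence level.

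Iroquois proteins are transcription factors with a homeodomain of the TALE class, in which an extra loop separates the first helices. In Drosophila the founding genes araucan, caupolican and mirror define territories of the body wall, and vertebrate members mark regions of the early neural plate, midbrain, hindbrain and spinal cord. In mammals the genes lie in a pair of clusters of 3, one with Irx3, Irx5 and Irx6 and the other with Irx1, Irx2 and Irx4. Their products bind DNA through the recognition helix, the third helix of the homeodomain.

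The homeobox, the DNA that codes for the homeodomain, is where the members are most alike, and 48 bases over the recognition helix are shown because they code for the same amino acids in every member. They were read from GENCODE M21 transcripts on GRCm38, the assembly also called mm10, and capitals mark bases that differ from Irx3. 
Irx3, chr8:91800508-91800555, minus strand: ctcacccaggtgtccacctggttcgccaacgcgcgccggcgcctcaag
Irx5, chr8:92359756-92359803, plus strand: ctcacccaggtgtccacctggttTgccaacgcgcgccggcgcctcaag
Irx6, chr8:92677365-92677412, plus strand: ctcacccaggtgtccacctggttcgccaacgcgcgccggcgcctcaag
Irx1, chr13:71960004-71960051, minus strand: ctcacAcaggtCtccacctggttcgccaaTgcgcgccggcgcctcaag
Irx2, chr13:72630793-72630840, plus strand: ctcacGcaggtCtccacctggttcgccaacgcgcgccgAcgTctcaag
Irx4, chr13:73267652-73267699, plus strand: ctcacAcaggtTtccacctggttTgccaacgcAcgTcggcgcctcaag
Irx6 had the same letters as Irx3 and Irx5 had 1 difference, while Irx1 had 3, Irx2 had 4 and Irx4 had 5. The stretch codes for 16 amino acids, the same in all 6 genes. Over the whole homeobox of 189 bases, the 15 pairs of genes were 83.1% to 91.0% identical. Irx2 and Irx5, which lie in different clusters, were the most alike, with 91.0% of bases and all 63 encoded amino acids the same. Irx1 and Irx3 shared 62 of the 63 amino acids, and Irx4 and Irx6 shared 58. The longest run of identical bases between the most abundant transcripts of any pair was 88 bases, in Irx3 and Irx6, while the fragment length modelled in the files was 100 bases. The posterior SD of the gene count was 0.00 for each member other than Irx3, for which it was 0.75 in replicate 2 and 0.71 in replicate 1.

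The midbrain label was set against marker genes. The 8 midbrain markers were each above 1 TPM in both libraries, with Otx2, which marks forebrain and midbrain, at 142 TPM in replicate 2 against 147 TPM in replicate 1. Of 7 hindbrain markers, 6 were under 1 TPM in both libraries, and Hoxb4 was at 0 in both. The 8 forebrain markers were likewise each above 1 TPM in both libraries, and their summed level was 74.5 TPM in replicate 2 against 107 TPM in replicate 1. Markers of mesenchyme were also detected, the 8 on the list summing to 1557 TPM in replicate 2 against 1101 TPM in replicate 1. In such bulk tissue, fewer cells of a type and less RNA per cell cannot be told apart.

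The family fell into 3 ranges of level: Irx3, Irx5 and Irx2 had means of 39.8 to 62.9 TPM, Irx1 was near 10 TPM, and Irx6 and Irx4 were at 2.505 TPM or less. The 6 genes summed to 162 TPM in replicate 2 against 165 TPM in replicate 1. The order was Irx3, Irx5, Irx2, Irx1, Irx6 and Irx4 in both libraries, and the library values of neighbours in that order did not overlap. The deposited intervals of neighbours overlapped for Irx5 and Irx2 alone.

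**Figure D1:**
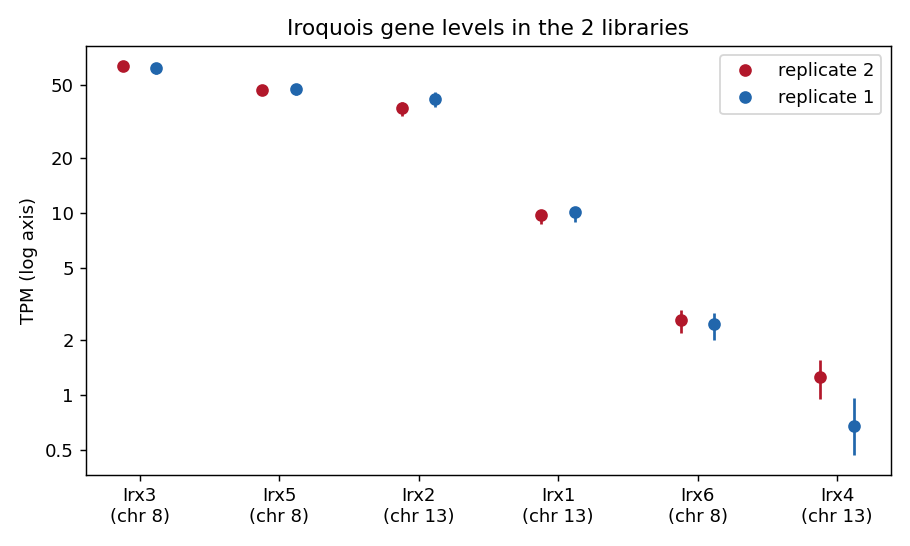
Deposited TPM of each Iroquois gene in both libraries on a log axis, with bars for the deposited intervals. Irx3, at a mean of 62.9 TPM, was the highest and Irx4, at 0.97 TPM, the lowest.

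Irx3 (ENSMUSG00000031734, chr8:91798525-91802067, minus strand), which in chick acts in setting the position of the thalamus, was the most abundant. It was at 63.9 TPM in replicate 2, with an interval of 60.2 to 64.3 TPM, against 61.9 TPM in replicate 1, where the interval was 57.8 to 62.3 TPM. Those values rested on 3577 and 2741 estimated counts in replicates 2 and 1. The intervals overlapped. The mean of 62.9 ± 1.41 TPM (SD, n = 2) lay above 87.1% of protein-coding genes.

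Irx5 (ENSMUSG00000031737, chr8:92357625-92376286, plus strand), known in mouse for roles in the retina and the heart, came next. It was at 47.3 TPM in replicate 2, with an interval of 44.3 to 47.9 TPM, against 47.6 TPM in replicate 1, where the interval was 44.1 to 48.1 TPM. The intervals overlapped almost wholly, and the mean was 47.4 ± 0.219 TPM (SD, n = 2). Irx3 stood 1.35 times above Irx5 in replicate 2 and 1.30 times above it in replicate 1.

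Irx2 (ENSMUSG00000001504, chr13:72628820-72634198, plus strand), which in chick takes part in forming the cerebellum, was the highest member of its own cluster. It was at 37.5 TPM in replicate 2, with an interval of 33.8 to 40.6 TPM, against 42.1 TPM in replicate 1, where the interval was 38.1 to 46.0 TPM. The intervals overlapped, and replicate 2 was the lower library. Irx5 exceeded Irx2 1.26 times in replicate 2 and 1.13 times in replicate 1. The mean of Irx2 was 39.8 ± 3.27 TPM (SD, n = 2).

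Irx1 (ENSMUSG00000060969, chr13:71957921-71963723, minus strand), the gene at the other end of the cluster from Irx4, was lower. It was at 9.68 TPM in replicate 2, with an interval of 8.64 to 10.3 TPM, against 10.1 TPM in replicate 1, where the interval was 8.87 to 10.8 TPM. The intervals overlapped over most of their length. Irx2 exceeded Irx1 3.87 times in replicate 2 and 4.16 times in replicate 1.

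Irx6 (ENSMUSG00000031738, chr8:92674288-92680956, plus strand), known in mouse from bipolar cells of the retina, was at 2.57 TPM in replicate 2 against 2.44 TPM in replicate 1. Its intervals were 2.19 to 2.92 TPM in replicate 2 and 2.00 to 2.82 TPM in replicate 1, and they overlapped. Irx3, the homeobox of which has the same 48 bases over the recognition helix, exceeded Irx6 24.9 times in replicate 2 and 25.4 times in replicate 1. The 4 retina markers summed to 4.10 TPM in replicate 2 against 3.03 TPM in replicate 1, and their part in the level of Irx6 was not tested.

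Irx4 (ENSMUSG00000021604, chr13:73260479-73269608, plus strand), known for its expression in the ventricles of the heart, was the lowest. It was at 1.26 TPM in replicate 2, with an interval of 0.954 to 1.55 TPM, against 0.68 TPM in replicate 1, where the interval was 0.468 to 0.961 TPM. The intervals touched over a narrow stretch, and replicate 2 was the higher library. These values rested on 66 counts in replicate 2 and 29 counts in replicate 1.

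The difference between the pools was then tested for each gene with a two-sided exact binomial test on counts scaled by library size (TMM), with Benjamini-Hochberg adjustment over all genes tested. Called genes had an adjusted p under 0.05, differed by 1.5-fold or more and reached a mean of 1 TPM. Such a test covers counting error and compares these 2 libraries, not conditions. By this rule 0 of the 6 members were called, against 3.56% of the 15199 genes at a mean of 1 TPM or more. Irx4, at 0.97 ± 0.410 TPM (SD, n = 2), was under that level, which left 5 members that could be called. With no minimum TPM, an alternative chosen after seeing the data, 1 of the 6 was called, Irx4, against 4.5% of 18939 genes. Before adjustment, 2 of the 6 members, Irx2 and Irx4, had an exact binomial p under 0.05, against 32.3% of the 18939 genes tested, so that share was near the background. The edgeR exact negative binomial test, with the rest of the rule kept, called 0 of the 6, against 1.33% of 15199 genes. Its dispersion was estimated from the same 2 libraries taken as replicates, so the difference between them is part of its own error.

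Irx2 was lower in replicate 2, with a log2 ratio of replicate 2 over replicate 1 of -0.26 and an adjusted p of 6.11e-06 in the exact binomial test. Its ratio of 0.834, with an exact 95% interval of 0.778 to 0.895, was short of 1.5-fold. A smaller ratio in either direction was seen for 79.4% of genes at 1 TPM or more, a set that includes genes with few counts. Irx2 had 1647 counts in replicate 2 and 1534 in replicate 1. Over 7049 protein-coding genes with a mean count of at least 1000, the SD of the log2 ratio was 0.141. Irx4 had a log2 ratio of 0.81 and an adjusted p of 0.0434 in the exact binomial test. That adjusted p was 0.0554 when every gene with at least 1 summed count was tested, and 0.0428 to 0.0436 with total-count or DESeq2 size factors. In the edgeR exact negative binomial test, which allows for more than counting error, the adjusted p of Irx4 was 0.519. Irx2 did not pass the adjusted p threshold in that test either. The ratio of Irx4 was 1.77, with an exact 95% interval of 1.13 to 2.84.

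Markers of several tissues outside the brain had their higher value in the same library as Irx4. The marker lists were chosen with earlier results of these data known. All 8 mesenchyme, all 6 skin and all 5 cartilage markers were higher in value in replicate 2, and of these 3 cartilage markers were called. Over all genes at 1 TPM or more, 7756 of 15199 were higher in value in replicate 2, and 2.18% were called higher. Of 4 endothelium markers, 3 were higher and 1 was lower in replicate 2, and none was called. The skin markers summed to 30.02 TPM in replicate 2 against 21.5 TPM in replicate 1, and the cartilage markers to 193 TPM in replicate 2 against 121 TPM in replicate 1. Of 8 heart markers, 7 had a higher value in replicate 2, and their summed level was 13.3 TPM in replicate 2 against 6.94 TPM in replicate 1. Myl2, a myosin light chain of the ventricle, was at 3.23 TPM in replicate 2 against 0.87 TPM in replicate 1. Nppa, a natriuretic peptide of the heart, was at 2.30 TPM in replicate 2 against 0.82 TPM in replicate 1. Both were called, on few counts: 33 and 9 for Myl2 and 39 and 11 for Nppa in replicates 2 and 1. The other 6 heart markers were not called, and Myh6 and Nkx2-5 among them were under 1 TPM and could not be. Tnni3, the highest heart marker by mean, was at 2.94 TPM in replicate 2 against 1.54 TPM in replicate 1. Its adjusted p in the exact binomial test was 0.171. Myl7 was lower in replicate 2, at 1.00 TPM against 1.15 TPM in replicate 1. Nkx2-5, which defines the heart lineage, was at 0.06 TPM in replicate 2 against 0.04 TPM in replicate 1, on 2 counts and 1 count. Whether heart or other non-neural cells were in the pools, and their part in the level of Irx4, was not tested.

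The remaining members differed little between the pools. The log2 ratio was 0.02 for Irx3, -0.04 for Irx5, -0.09 for Irx1 and 0.09 for Irx6. Their adjusted p-values in the exact binomial test were 0.778 for Irx3, 0.646 for Irx5, 0.572 for Irx1 and 0.792 for Irx6. For scale, the SD of the log2 ratio was 0.254 over 12113 protein-coding genes with a mean count of at least 100.

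**Figure D2:**
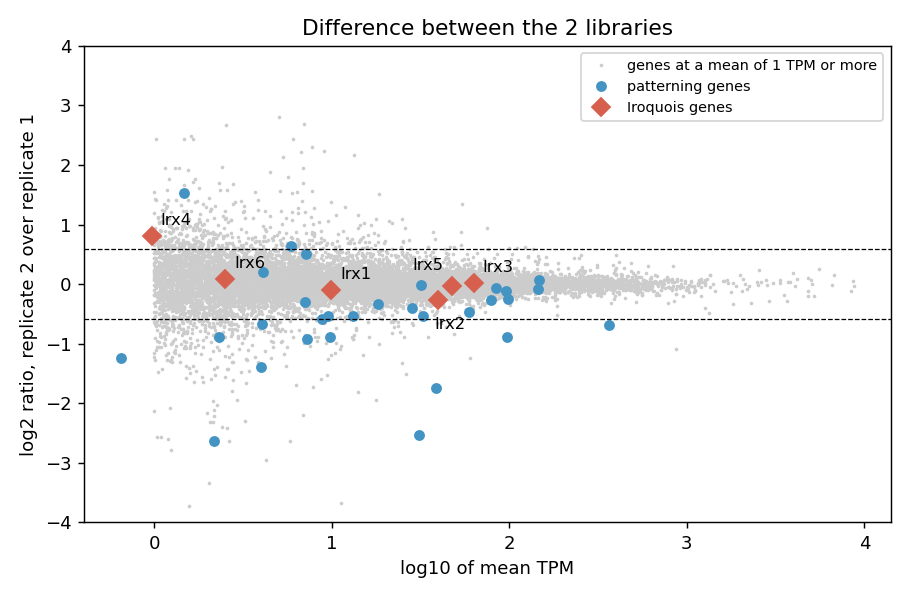
Log2 ratio of replicate 2 over replicate 1 against log10 of mean TPM for 15199 genes at 1 TPM or more (24 lie outside the axis), with Iroquois genes as diamonds and patterning genes as circles. Dashed lines mark 1.5-fold, and of the Iroquois genes Irx4 lies past them, at 0.81.

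The clusters differed in level. The genes on chromosome 8 summed to 114 TPM in replicate 2 against 111.95 TPM in replicate 1, while those on chromosome 13 summed to 48.4 TPM in replicate 2 against 52.9 TPM in replicate 1. The log2 difference of chromosome 8 minus chromosome 13 was 1.23 in replicate 2 and 1.08 in replicate 1, with a mean of 1.16 ± 0.11 (SD, n = 2). In both libraries the chromosome 8 cluster was higher. It took 70.1% of the family total in replicate 2 and 67.9% in replicate 1.

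The lowest gene of each cluster, Irx6 or Irx4, lay at an end of the row, and on chromosome 13 Irx1 at the other end was also below Irx2. On chromosome 8 Irx3 and Irx5 were separated by 555.6 kb and Irx6 lay 298.0 kb beyond Irx5, so the low member was the nearer neighbour. On chromosome 13 Irx1 and Irx2 were 665.1 kb apart and Irx4 lay 626.3 kb beyond Irx2. The share of the family total was 39.4% in replicate 2 and 37.6% in replicate 1 for Irx3, and 29.1% in replicate 2 and 28.9% in replicate 1 for Irx5. Irx2 took 23.1% in replicate 2 and 25.5% in replicate 1. Irx1, Irx6 and Irx4 took the small remainder, with Irx4 at 0.777% in replicate 2 and 0.412% in replicate 1.

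**Figure D3:**
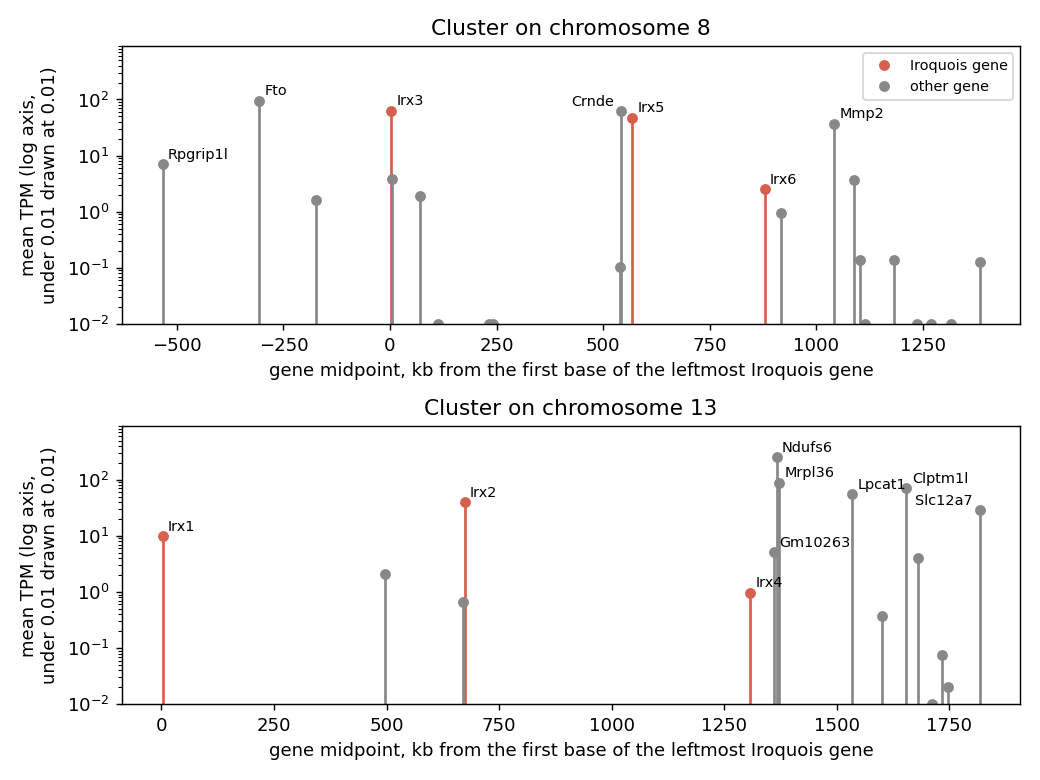
Mean TPM of measured genes within 500 kb of each cluster on a log axis, placed by gene midpoint in kb from the first base of the leftmost Iroquois gene. Irx3 at 62.9 TPM, Irx5 at 47.4 TPM and Irx2 at 39.8 TPM stand high, and Irx6 and Irx4 are the lowest members of their clusters.

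Within 500 kb of the clusters lay 33 other measured genes, of which 16 had a mean of 1 TPM or more. Fto, an RNA demethylase gene next to Irx3, was at 95.4 TPM in replicate 2 against 93.4 TPM in replicate 1, and its neighbour Rpgrip1l, a gene of the ciliary transition zone, was at 7.06 TPM in replicate 2 against 7.03 TPM in replicate 1. On the far side of Irx6, Mmp2, a gelatinase, was at 43.9 TPM in replicate 2 against 29.6 TPM in replicate 1 and was not called. Lpcat2, a lipid acyltransferase gene, was the 1 neighbour of these 16 that was called, at 4.69 TPM in replicate 2 against 2.77 TPM in replicate 1. Over all 15199 genes at a mean of 1 TPM or more, 3.56% were called. Near Irx4, Ndufs6 and Mrpl36, which code for mitochondrial proteins, were at 251 and 88.4 TPM in replicate 2 and at 251 and 90.1 TPM in replicate 1. Lpcat1, Clptm1l, Slc12a7 and the telomerase gene Tert followed beyond them, at means over 1 TPM. The non-coding and pseudogene entries Gm28511, Gm3235, Rpl9-ps4 and Gm10263 were also above a mean of 1 TPM, and the values of pseudogenes are uncertain because they share sequence with other genes.

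Non-coding genes overlapped 1 member and were divergent from 2 others. Crnde, a long non-coding RNA gene transcribed away from Irx5 across a gap of 1504 bases, was at 60.8 TPM in replicate 2 against 63.4 TPM in replicate 1, above Irx5 itself. Irx3os overlaps Irx3 on the opposite strand, and was at 4.09 TPM in replicate 2 against 3.43 TPM in replicate 1. The exons of the pair share 124 bases, the strand setting of the counting is not stated, and reads in those bases cannot be assigned to one of the pair with certainty. Gm20554, transcribed away from Irx2 across a gap of 255 bases, was at 0.36 TPM in replicate 2 against 0.99 TPM in replicate 1, on 6 and 13 counts.

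The promoter of Irx2 is shown because it fills most of the gap to Gm20554, and that of Irx4 because it belongs to the least abundant member. Sequences are from RefSeq on GRCm38.p6, with every CG dinucleotide (motif CG, the same on both strands) in capitals. 
Irx2, chr13:72628570-72628819, plus strand: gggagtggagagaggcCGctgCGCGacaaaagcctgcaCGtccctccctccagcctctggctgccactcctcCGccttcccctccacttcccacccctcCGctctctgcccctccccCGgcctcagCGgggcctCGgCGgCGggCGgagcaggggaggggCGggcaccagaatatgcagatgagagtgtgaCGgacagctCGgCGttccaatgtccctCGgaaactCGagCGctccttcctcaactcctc
Irx4, chr13:73260247-73260496, plus strand: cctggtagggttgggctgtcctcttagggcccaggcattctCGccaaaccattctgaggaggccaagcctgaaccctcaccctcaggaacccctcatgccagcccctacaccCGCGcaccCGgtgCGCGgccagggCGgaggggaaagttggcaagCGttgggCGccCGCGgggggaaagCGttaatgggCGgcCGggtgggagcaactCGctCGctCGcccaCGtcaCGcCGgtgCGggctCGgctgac
The high member Irx2 had 19 CG dinucleotides and the low member Irx4 had 22, with 68.4% and 68.8% G and C in Irx2 and Irx4. The window of Irx3 (chr8:91801655-91801904, minus strand) held 13, but it lies within the GENCODE span of the gene given above. The last bases of the Irx4 window also lie within the GENCODE span of Irx4, which starts at 73260479. No window was available for Irx1, Irx5 or Irx6. Over 32851 promoter windows of the same length the median was 6. At least 1 CG was present in 92.1% of them, 19.7% had as many as Irx2 or more, and 14.8% had as many as Irx4 or more.

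Among 203 measured homeobox genes, 114 had a mean of 1 TPM or more and 64 reached 10 TPM. Irx3 ranked 14, between Pbx3 at 63.3 TPM and Tgif2 at 61.9 TPM, which are both TALE genes. Irx5 ranked 20, between Zeb1 at 50.2 TPM and the dorsal neural gene Pax3 at 47.1 TPM. Irx2 ranked 28, between Lhx5 at 40.6 TPM and Dlx1 at 39.4 TPM. Irx1 ranked 65, next to Zhx3 at 13.1 TPM and Barhl2 at 9.73 TPM. Irx6 ranked 97, between Nkx2-4 at 2.58 TPM and Onecut3, and Irx4 ranked 115, just after Evx2 at 1.06 TPM. Likeness here is nearness of mean TPM over the 2 libraries.

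**Figure D4:**
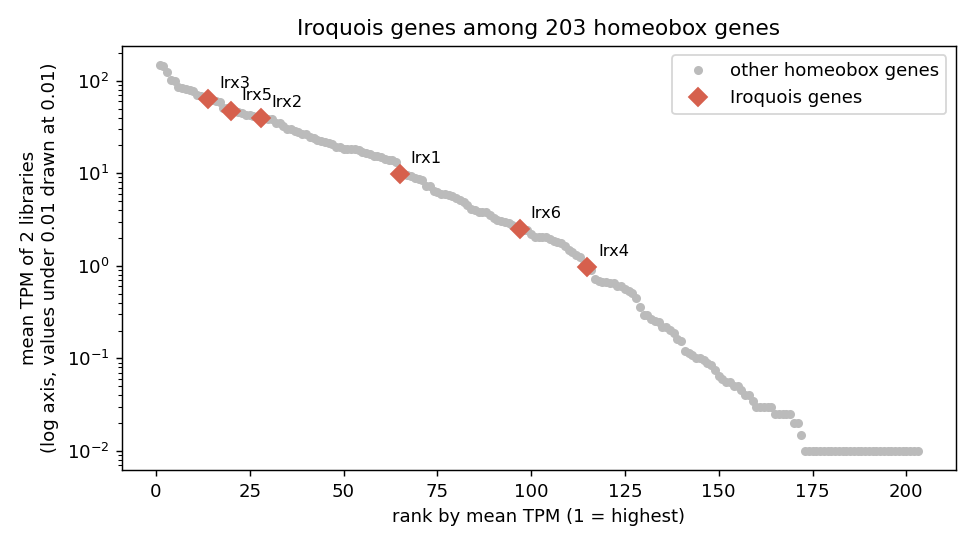
Mean TPM of measured homeobox genes in order of level, on a log axis, with the Iroquois genes marked. Irx3, Irx5 and Irx2 rank 14, 20 and 28, and Irx4 ranks 115.

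The members also differed in how their abundance was divided among transcripts. The shares below are of TPM, which is corrected for length, and not of reads. Irx1 and Irx5 each have 1 transcript in the files, and the other 4 genes have more. For Irx3, the transcript ENSMUST00000175795 took 98.0% of the gene in replicate 2 and 95.7% in replicate 1, and ENSMUST00000093312 took the rest. Within the coding sequence of ENSMUST00000093312, 14 bases at a splice junction (chr8:91799659-91799672, minus strand, GRCm38) are absent from ENSMUST00000175795. Bases outside that coding sequence were not compared. The 14 bases are in capitals below with 30 bases on each side. 
ENSMUST00000093312: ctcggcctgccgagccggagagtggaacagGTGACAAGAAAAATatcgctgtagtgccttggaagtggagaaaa
ENSMUST00000175795: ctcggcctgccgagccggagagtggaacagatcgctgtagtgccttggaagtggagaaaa
The first 467 codons are shared, after which the major form has 40 further codons and the other has 55. The minor form was at 1.28 TPM in replicate 2 against 2.65 TPM in replicate 1, and its deposited intervals, 0.537 to 2.58 TPM in replicate 2 and 1.31 to 4.56 TPM in replicate 1, overlapped.

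For Irx2, the full-length transcript ENSMUST00000074372 took 70.1% in replicate 2 and 74.4% in replicate 1. On estimated counts, which are not corrected for length, it held 1487 of 1647 in replicate 2 and 1402 of 1534 in replicate 1. Its level was 26.3 TPM in replicate 2, with an interval of 24.2 to 27.0 TPM, against 31.3 TPM in replicate 1, where the interval was 28.5 to 32.0 TPM. Those intervals did not overlap. A transcript with a retained intron, ENSMUST00000163393, took 14.6% in replicate 2 and 16.4% in replicate 1. The short coding transcript ENSMUST00000172353 took 14.1% in replicate 2 and 7.20% in replicate 1, with intervals that overlapped.

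The top transcript of Irx6, ENSMUST00000034185, took 89.3% in replicate 2 and 72.1% in replicate 1. It has 541 bases that the other transcript lacks, and the intervals of each transcript overlapped between libraries. For Irx4 the most abundant transcript was not the same in both libraries: ENSMUST00000176684 took 72.8% in replicate 2 and 42.35% in replicate 1, and ENSMUST00000022095 took 27.3% in replicate 2 and 57.65% in replicate 1. All intervals of Irx4 transcripts overlapped between libraries, and each transcript rested on at most 46.9 counts.

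**Figure D5:**
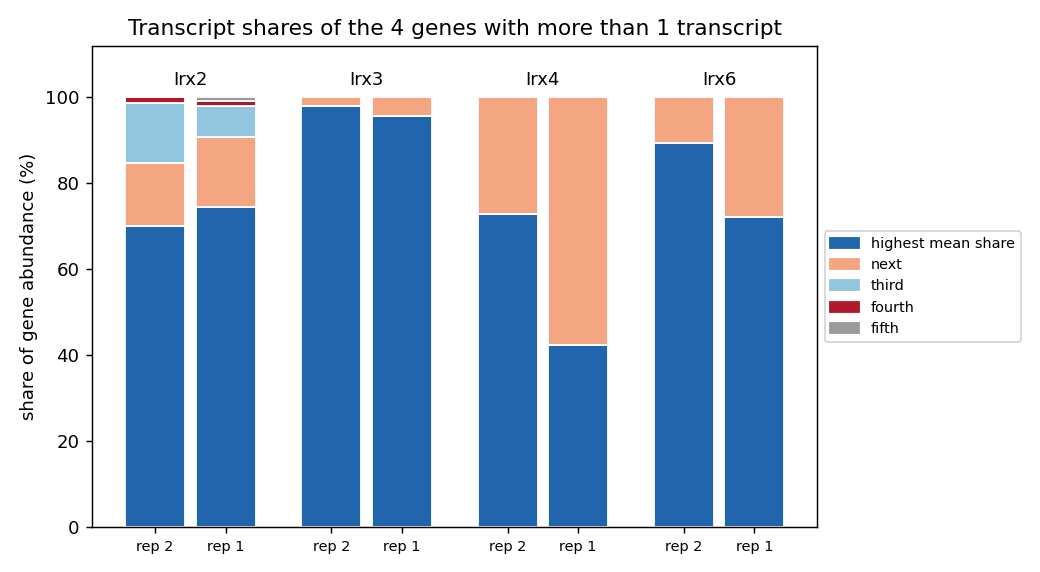
Share of each gene's abundance given to its transcripts in replicate 2 and replicate 1, in percent. The top transcript of Irx3 holds 98.0% and 95.7% in replicates 2 and 1, while for Irx4 the top transcript differs between the libraries.

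A list of 30 genes that pattern the neural tube was then set beside the family. It was chosen with earlier results of these data known, so its counts and median are a description and not a test. Of these 30, 2 were higher in replicate 2 and 10 were lower by the same rule, against 2.18% and 1.38% of all genes at 1 TPM or more. The other 18 were not called, and of these Dbx2, at a mean of 0.65 TPM, could not be. The median log2 ratio over the list was -0.50, against 0.00 over all genes at 1 TPM or more and -0.01 over the Iroquois genes. Among the highest were Tcf7l2, Dbx1, Otx2, Neurog2 and Lhx2. Tcf7l2, the Wnt effector that is strong in the thalamus, was at 283 TPM in replicate 2 against 444 TPM in replicate 1. The progenitor gene Dbx1, at 152 TPM in replicate 2 against 142 TPM in replicate 1, was not called.

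Of the called genes, Olig3, a dorsal and thalamic bHLH gene, was at 9.26 TPM in replicate 2 against 52.9 TPM in replicate 1. Pax6, a homeobox gene of the forebrain and spinal cord, was at 17.7 TPM in replicate 2 against 60.0 TPM in replicate 1. Neurog2, a proneural gene, was at 68.5 TPM in replicate 2 against 125 TPM in replicate 1. Barhl2, Olig2, Fgf8, Fezf2, Wnt3a, Fezf1 and Tcf7l2 were also called lower in replicate 2. Nkx6-1, a ventral progenitor gene, was at 7.23 TPM in replicate 2 against 4.57 TPM in replicate 1, and Atoh1, a proneural gene of dorsal hindbrain and cerebellum, was at 2.20 TPM in replicate 2 against 0.74 TPM in replicate 1, and both were higher. Of the 8 forebrain markers, 4 were called lower and 1 higher in replicate 2, and their part in these differences was not tested.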

How the data were processed

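Total RNA from 2 midbrain libraries was analysed from gene and transcript tables. The deposited expected counts are estimates per gene and per transcript, fractions allowed, as the file headers show. The deposited TPM values were normalised by the authors for effective length and library, with posterior means, posterior SDs and interval bounds beside them, per the file headers. Isoform percent, also computed by the authors, divides a gene's TPM among its transcripts. Per the file notes, the annotation was GENCODE M4 on mm10. No source used here gives the aligner, and the labels link a SMARTer Ultra Low kit manual. Names and coordinates came from GENCODE M21, which matched 42462 of 43346 genes, and transcript letters from its newer versions. Library sizes and tests excluded spike-ins and 26248 numbered features.

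Counts were rounded for tests. TMM factors (edgeR 4.0.16, R 4.3.3) were 1.003 for replicate 2 and 0.997 for replicate 1. Genes with at least 10 summed counts entered a two-sided exact binomial test with Benjamini-Hochberg adjustment, and log2 ratios had 0.5 counts added. Ratio intervals are 95% exact binomial intervals and cover counting error only. The pools differ in number of embryos but share 1 donor label, so p-values compare 2 libraries. The test was checked on simulated data: over 18972 genes with counting error alone, 92% of 2-fold and 100% of 4-fold changes were recovered, and 4 unchanged genes were called. Alternatives were other size factors (DESeq2 1.42.0, total counts, TMM without globin and mitochondrial genes), filters, pseudocounts, posterior means, rescaled TPM, a negative binomial test and leaving out each library. TMM without globin and mitochondrial genes was applied to log2 ratios only, with no calls made. The members, gene lists and tests were chosen with earlier results of these data known. Named genes were the members, the called or 6 highest patterning genes, neighbours within 500 kb at a mean of 1 TPM or more or overlapping or divergent, and the homeobox genes next in level. Markers were named from set lists, and the rest were counted. Some genes under this rule are not reported here. Scripts ran in Python 3.11.15 with scipy 1.17.1.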

Additional observations from a re-analysis of the deposited data

How the results depend on the processing

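The number of genes called between the libraries was 541, and it was 202 (1.33% of 15199) in the edgeR exact negative binomial test and 852 (4.5% of 18939) with no minimum TPM, an alternative chosen after seeing the data. No Iroquois gene was called with DESeq2 or total-count size factors, with a lower count filter or in the negative binomial test. With no minimum TPM 1 of 6 was called, Irx4. The log2 ratio kept its sign for 5 of the 6 members over all alternatives, and lay between -0.04 and 0.0003 for Irx5. It ranged from -0.26 to -0.17 for Irx2 and from 0.70 to 0.82 for Irx4. The log2 difference between the clusters was 1.39 on expected counts without length normalisation and 1.08 to 1.23 with a library left out, against 1.16. Rescaled over nuclear protein-coding genes, Irx3 stood at 79.6 TPM and Irx1 at 12.5 TPM. By counts without length normalisation the homeobox rank was 18 for Irx3 and 41 for Irx2. With a library left out, the share of the top transcript ranged from 42.35% to 72.8% for Irx4 and from 72.1% to 89.3% for Irx6. No paired analysis was possible because the libraries form 1 group, and the test between libraries cannot be run with one left out. The lowest depth was that of Irx4, with 66 counts in replicate 2 and 29 in replicate 1. Its adjusted p was 0.0554 with the lower count filter, against 0.0434 in the exact binomial test. In the edgeR exact negative binomial test the adjusted p of Irx4 was 0.519, and Irx2 did not pass the adjusted p threshold.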
